A study of Mus musculus with 3 samples.

Results

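The genes described are 10 AP-1 and early growth response genes of mouse blood monocytes: the FOS genes Fos, Fosb and Fosl2, the JUN genes Jun, Junb and Jund, and Atf3, Egr1, Egr3 and Ier2. They were chosen by name from 55536 genes listed, and all 10 were found. Total RNA was measured in 3 libraries of peripheral blood monocytes, taken from adult mice of strain C57BL/6J at 5 to 6 weeks of age. The labels number the libraries as biological replicates 1, 2 and 3 of a single group, with no treatment, no mutant and no other cell type, and all 3 carry 1 donor record with sex not collected. The spread behind every p-value here is that among these libraries, estimated in part from all genes tested and not from each gene alone. It may be technical in part. Each level was tested against a fixed value of 1 TPM instead of against a control group.

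AP-1 is a family of dimers that bind DNA through a basic region and pair through a leucine zipper. JUN proteins can pair with each other, whereas FOS proteins need a partner such as a JUN protein. Atf3 encodes a member of the wider bZIP family that can repress inflammatory genes, Egr1 and Egr3 encode zinc finger factors, and Ier2 encodes a short-lived nuclear protein. Most of these genes are known as immediate early genes, which MAP kinase signalling turns on without new protein synthesis and whose messenger RNAs decay within a short time. Jund is held at a steadier level in many cells. In monocytes and macrophages AP-1 and EGR factors are known for parts in differentiation and in the response to microbial products, and handling of cells during isolation is known to induce several of these genes.

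Depth was 27.2, 26.5 and 19.9 M expected counts (estimated reads per gene) in libraries 1, 2 and 3. Levels are in TPM, the transcript abundance per length, scaled by the authors to the same total in each library over every row of a table. Small nuclear RNAs took 60.8%, 60.0% and 60.5% of that total. A level of 1 TPM would therefore read 9.16, 10.2 and 9.35 TPM if only protein-coding genes were counted in the total. Library 3 stood apart from the others. Xist, the RNA of the inactive X chromosome, had 0, 0 and 4348 counts in libraries 1, 2 and 3, while the Y-linked Ddx3y had 9813, 9846 and 4261 counts. Markers of natural killer cells summed to 616, 508 and 1428 TPM and were at least 2-fold higher in library 3 for 6 of 6 genes. Platelet markers summed to 15.3, 11.2 and 96.6 TPM, red cell markers to 3157, 2983 and 228 TPM, and the 5 monocyte markers to 1594, 1360 and 881 TPM. The lower monocyte sum of library 3 lay mainly in Lyz2 (1448, 1238 and 718 TPM). Of the 5 markers 3 were highest there, near the share of 58.2% among protein-coding genes with a mean of 1 TPM or more. They included Csf1r (69.8, 52.4 and 86.6 TPM) and Ccr2 (27.3, 25.2 and 32.2 TPM). Only 1 of the 5 exceeded the shift of the median protein-coding gene in library 3 against both other libraries. Csf1r had 27395, 28843 and 15379 expected counts, with effective lengths (by which TPM divides) of 3491, 4533 and 2336 bases. Of the neutrophil markers Ly6g had no counts in any library, and the sum was 140, 126 and 9.44 TPM. Most of that sum was Retnlg (124, 114 and 0 TPM), while Csf3r was highest in library 3 (5.99, 6.64 and 8.09 TPM). B cell markers summed to 33.1, 34.5 and 27.6 TPM, T cell markers to 2.18, 2.77 and 4.93 TPM, basophil and eosinophil markers to 23.1, 26.0 and 3.88 TPM and tissue macrophage markers to 0.85, 0.43 and 0.29 TPM. All 5 markers of the labelled cell type lay above 1 TPM, but so did all 6 natural killer cell markers, whose sum exceeded that of the monocyte markers in library 3. In such bulk samples fewer cells of a type and less RNA per cell cannot be told apart.

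All 10 genes had counts in every library, and 9 of them lay above 1 TPM while Egr3 lay below it. Over all 17678 genes tested, edgeR's quasi-likelihood test called 43.2% above and 6.35% below 1 TPM, and 54.1% of protein-coding genes above. The order by mean was Junb, Jun, Fos, Atf3, Jund, Ier2, Fosl2, Fosb, Egr1 and Egr3. Neighbours in this order had ranges that did not overlap at 3 places, between Atf3 and Jund, between Fosl2 and Fosb and between Egr1 and Egr3. Junb was the highest of the 10 genes and Fosl2, Fosb, Egr1 and Egr3 were the lowest, in that order, in each of the 3 libraries. Jun, Fos, Atf3, Jund and Ier2 stood in a different order in each library.

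**Figure D1:**
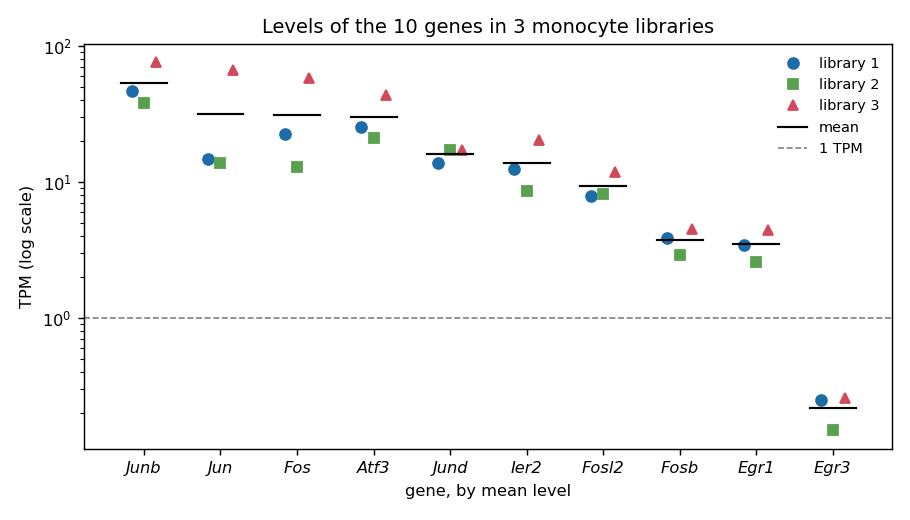
TPM of each gene (vertical axis, log scale) in libraries 1, 2 and 3 (circles, squares and triangles), ordered by mean (black bars), with 1 TPM as a dashed line. Junb is highest in every library, the points of Jun and Fos are the most spread, and Egr3 alone lies below the dashed line.

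Among the JUN genes, Junb had the highest level and Jun the widest spread. Junb (ENSMUSG00000052837.6, chr8:84974484-84978718, minus strand, mm10), whose product is a weaker activator than JUN at many targets, had 46.6, 37.9 and 75.7 TPM in libraries 1, 2 and 3. Library 3 was highest, and the mean of 53.4 TPM ± 19.8 (SD, n = 3) lay above 1 TPM (edgeR quasi-likelihood, adjusted p = 2.08e-12). Jun (ENSMUSG00000052684.4, chr4:95049034-95052222, minus strand), the founding member of the family, had 14.8, 13.9 and 66.2 TPM. Libraries 1 and 2 were close to each other and library 3 stood far above both, also in reads, with 5007, 5113 and 15105 expected counts. The mean of Jun, 31.6 TPM ± 29.9 (SD, n = 3; edgeR adjusted p = 2.11e-09), was 14.4 TPM when library 3 was left out. Jund (ENSMUSG00000071076.6, chr8:70698949-70700616, plus strand), which is held at a steadier level than its relatives in many cells, had 13.7, 17.1 and 17.3 TPM. Its mean was 16.0 TPM ± 2.01 (SD, n = 3; edgeR adjusted p = 1.98e-10), the smallest SD relative to the mean among the 10 genes, while that of Jun was the largest.

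Jun made up 19.7%, 20.2% and 41.6% of the summed TPM of the 3 JUN genes in libraries 1, 2 and 3, against 47.6% for Junb in library 3. Junb held 62.0% and 55.0% in libraries 1 and 2 and was the largest part in every library. Jund held 18.3%, 24.8% and 10.9%. A share within a library does not depend on how that library was scaled, so the higher part of Jun in library 3 is not set by the scaling of TPM. The length used for Jund does matter: in the tables made on the older GENCODE M4 annotation Jund had 2300, 3124 and 1964 counts, nearly those of the main tables (2300, 3124 and 1949), but 7.60, 9.53 and 9.73 TPM, since its effective length there was 2702 bases in library 1 in place of 1493 bases.

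**Figure D2:**
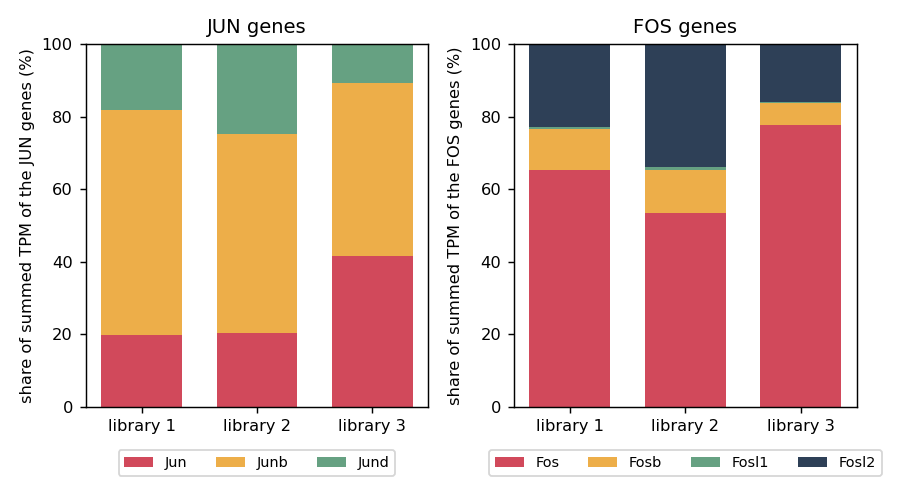
Share of the summed whole-gene TPM of the M21 tables (vertical axis, %) held by each JUN gene (left) and each FOS gene (right) in libraries 1, 2 and 3. The share of Jun is 19.7%, 20.2% and 41.6%, and Fos holds 65.4%, 53.3% and 77.8%.

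Among the FOS genes, Fos itself was highest and varied over a 4.46-fold range. Fos (ENSMUSG00000021250.13, chr12:85473890-85477273, plus strand), whose messenger RNA is among the shortest lived in mammalian cells, had 22.7, 12.95 and 57.7 TPM, with 4848, 2934 and 7722 expected counts. Library 3 was highest and library 2 lowest. The mean was 31.1 TPM ± 23.5 (SD, n = 3; edgeR adjusted p = 7.75e-10) and 17.8 TPM without library 3. Fosl2 (ENSMUSG00000029135.10, chr5:32135801-32157842, plus strand), a FOS-related gene without the strong activation domain of Fos, had 7.92, 8.21 and 11.9 TPM. Fosb (ENSMUSG00000003545.3, chr7:19302696-19310051, minus strand), known for a truncated splice form, had 3.87, 2.90 and 4.51 TPM. Both lay above 1 TPM, Fosl2 with an adjusted p of 2.96e-09 and Fosb with 3.24e-06 (edgeR). Fosl1, the remaining gene of the family, had 0.21, 0.24 and 0.05 TPM from 40, 50 and 6 counts and was called neither above nor below 1 TPM (adjusted p = 0.0727, edgeR).

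Fos held 65.4%, 53.3% and 77.8% of the summed TPM of the 4 FOS genes, Fosl2 22.8%, 33.8% and 16.1% and Fosb 11.2%, 11.9% and 6.08%. These shares depend on the annotation. In the M4 tables Fos held 70.2%, 55.5% and 88.3%, Fosl2 21.2%, 34.1% and 8.07% and Fosb 7.99%, 9.25% and 3.53%. In the main tables the 3 JUN genes together reached 75.1, 68.9 and 159 TPM. The FOS genes reached 34.7, 24.3 and 74.2 TPM, less in every library. The ratio of JUN to FOS sums over whole genes was 2.16, 2.84 and 2.15, nearly the same in libraries 1 and 3. Both sums were higher in library 3. The FOS sums hold intron-containing and noncoding transcripts, described in the next paragraphs. On coding transcripts alone Fosb and Fosl2 were lower in library 3 than in library 1, and the ratio was not computed on that basis. The ratios given are of RNA over all transcripts of each gene, not of coding messenger RNA alone, and protein was not measured.

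The FOS genes also differed in which of their transcripts the reads were placed on, and some of these keep an intron. The junctions below are shown because they separate a spliced messenger RNA from a transcript that runs on into, or starts in, an intron of GENCODE M21. Each line gives 30 bases on either side of the last base of exon 1, or of the first base of exon 2, read 5′ to 3′ from the M21 transcripts. Capitals mark the side that differs within a pair: the intron in the first line of a pair and the neighbouring exon in the second.
Fosb, exon 1 into intron 1 (chr7:19309276-19309335, minus strand): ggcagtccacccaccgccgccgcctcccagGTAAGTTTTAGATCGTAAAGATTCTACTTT
Fosb, exon 1 to exon 2: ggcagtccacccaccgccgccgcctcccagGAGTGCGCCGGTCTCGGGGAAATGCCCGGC
Fosl2, exon 1 into intron 1 (chr5:32136776-32136835, plus strand): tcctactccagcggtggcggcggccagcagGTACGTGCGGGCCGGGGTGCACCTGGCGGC
Fosl2, exon 1 to exon 2: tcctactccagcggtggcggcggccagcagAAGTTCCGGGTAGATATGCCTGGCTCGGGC
Fos, intron 1 into exon 2 (chr12:85474905-85474964, plus strand): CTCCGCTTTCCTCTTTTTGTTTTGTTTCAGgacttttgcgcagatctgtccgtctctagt
Fos, exon 1 to exon 2: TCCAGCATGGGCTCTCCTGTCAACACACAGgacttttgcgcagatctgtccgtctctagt

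The full-length coding transcript of Fosb (ENSMUST00000003640.3) had 2.33, 1.46 and 1.65 TPM in libraries 1, 2 and 3. The intron-containing transcript (ENSMUST00000208230.1), a single exon of 3629 bases of which 2461 lie in introns of the coding one, had 1.22, 0.59 and 2.83 TPM. The coding form was thus highest in library 1 and the intron-containing form in library 3. The latter made up 31.6%, 20.3% and 62.7% of Fosb. A further coding transcript (ENSMUST00000208326.1) held 17.2% in library 2 and none in libraries 1 and 3. All coding transcripts of Fosb together had 2.64, 2.31 and 1.68 TPM and were lowest in library 3. The only coding transcript of Fosl2 (ENSMUST00000031017.10) had 6.43, 7.37 and 4.86 TPM and was lowest in library 3. An intron-containing transcript that runs on past exon 1 (ENSMUST00000201110.1, 3472 bases, 2839 of them in introns) had 1.36, 0.68 and 5.42 TPM. Another with a retained intron further downstream (ENSMUST00000202169.1) had 0.12, 0.16 and 1.67 TPM. Both of these were highest in library 3, and together they made up 18.7%, 10.2% and 59.3% of Fosl2.

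The higher values of Fosl2 and Fosb in library 3 stood in the intron-containing transcripts and not in the coding ones. On protein-coding transcripts alone, an alternative chosen after seeing the data, library 3 minus the mean of libraries 1 and 2 was -0.49 for Fosl2 and -0.53 for Fosb on the log2(TPM + 0.1) scale. The whole genes gave 0.56 and 0.42. The M4 annotation lists none of the 3 intron-containing transcripts. Its tables gave 6.86, 8.00 and 5.34 TPM for Fosl2, with library 3 lowest, and 2.59, 2.17 and 2.34 TPM for Fosb, with library 3 between the others. The M21 tables held 765, 511 and 1620 more counts for Fosl2 than the M4 tables in libraries 1, 2 and 3, and 415, 199 and 574 more for Fosb. Over all protein-coding genes with a mean of 1 TPM or more, transcripts annotated with a retained intron held 13.3%, 13.3% and 16.2% of TPM. Of the 5385 such genes with a transcript of that kind, 43.6% had their highest share in library 3.

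**Figure D3:**
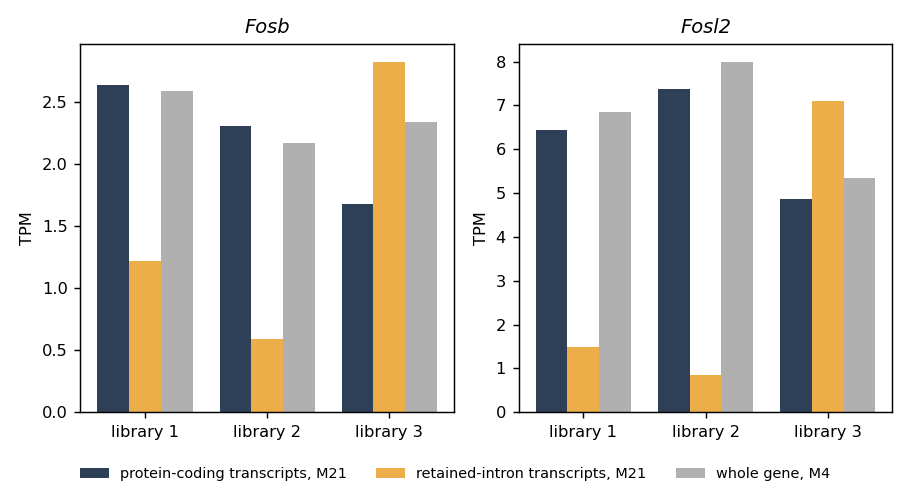
TPM (vertical axis) of the protein-coding transcripts and of the retained-intron transcripts of Fosb (left) and Fosl2 (right) in the M21 tables, beside the whole gene in the M4 tables, in libraries 1, 2 and 3. In library 3 the retained-intron bars of both genes exceed the coding bars, whereas the M4 bar of Fosl2 is lowest there.

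The reads of Fos were placed mainly on its spliced coding transcript (ENSMUST00000021674.6), which held 97.8%, 93.9% and 87.7% of Fos, that is 22.2, 12.2 and 50.6 TPM. A noncoding transcript that starts inside intron 1 and runs into exon 2 (ENSMUST00000136122.7) held 0%, 6.10% and 12.3%. The spliced form was thus highest in library 3 as well. In the other deposited quantification, in the format of the kallisto program, the coding transcript held 76.3%, 91.1% and 59.6%. There 2 noncoding transcripts that begin in intron 1 took the rest, so how the reads of exon 2 divide between these forms is uncertain.

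Another transcript of Fosb (ENSMUST00000208446.1) encodes the shortened form known as delta FosB, which lacks the end of the protein that activates transcription and accumulates where Fosb stays active. It has 237 codons before the stop codon, against 338 in the full-length form, and its coding sequence differs by the loss of 140 bases within the last exon (chr7:19305007-19305146). Those bases are printed in capitals with 20 bases on either side, because their first and last letters are those of an intron and show what is removed.
Fosb last exon (chr7:19304987-19305166, minus strand): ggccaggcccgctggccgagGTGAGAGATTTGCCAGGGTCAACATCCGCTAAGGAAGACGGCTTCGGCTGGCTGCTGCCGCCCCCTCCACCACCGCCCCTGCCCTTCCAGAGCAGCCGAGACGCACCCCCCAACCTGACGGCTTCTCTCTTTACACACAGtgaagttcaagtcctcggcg
This short form had 0.31, 0.35 and 0 TPM in the main tables, with 32.4, 39.9 and 0 expected counts. The kallisto-format tables gave it 3.98, 1.41 and 0.97 TPM, or 42.9%, 28.9% and 11.5% of Fosb. The 2 quantifications thus differed by several fold on this form, and had in common only that library 3 was lowest.

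Atf3 (ENSMUSG00000026628.13, chr1:191170296-191218039, minus strand), the stress-induced bZIP gene, had 25.4, 21.1 and 44.0 TPM. Library 3 was highest and the other libraries were near each other, while expected counts were almost equal at 4319, 4344 and 4264. The mean of 30.2 TPM ± 12.2 (SD, n = 3) lay above 1 TPM (edgeR adjusted p = 4.28e-11). The main coding transcript (ENSMUST00000027941.13) held 80.0%, 62.2% and 64.4% of the gene, and a short noncoding one (ENSMUST00000131854.1) held 20.0%, 7.15% and 35.6%. The kallisto-format tables gave 59.3%, 60.2% and 38.9% for the coding and 40.7%, 39.7% and 61.1% for the noncoding transcript, which was the larger in library 3 there. The noncoding transcript is 517 bases long against 1984 bases for the coding one, so 394 counts gave it 15.7 TPM in library 3. On coding transcripts alone Atf3 had 20.3, 19.6 and 28.3 TPM, a smaller excess in library 3 than for the whole gene. A second coding transcript, which starts at another first exon far upstream (ENSMUST00000195117.1), held 30.6% in library 2 and none in libraries 1 and 3. The kallisto-format table gave it 0.077% in library 2, so its use there is uncertain.

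Egr1 and Egr3 were the lowest of the 10 genes. Egr1 (ENSMUSG00000038418.7, chr18:34859823-34864984, plus strand), a gene induced through serum response factor and known in monocyte differentiation, had 3.44, 2.61 and 4.43 TPM, or 1142, 944 and 1032 expected counts. The libraries lay within 1.70-fold of each other, and the mean of 3.49 TPM ± 0.911 (SD, n = 3) was above 1 TPM (edgeR adjusted p = 8.72e-06). One of its 2 coding transcripts (ENSMUST00000165033.1) held 93.3%, 92.7% and 85.4% of the gene and the other (ENSMUST00000064795.5) the rest. Egr3 (ENSMUSG00000033730.4, chr14:70077203-70082614, plus strand), a relative best known in lymphocytes, had 0.25, 0.15 and 0.26 TPM from 104, 66 and 75 expected counts. Egr1 was 13.8, 17.4 and 17.0 times as high as Egr3 in libraries 1, 2 and 3.

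The call of Egr3 below 1 TPM (edgeR adjusted p = 0.0104) did not hold in every setting. It was lost without library 1 (adjusted p = 0.0514), with DESeq2 (0.455) and in the M4 tables (0.125) and kallisto-format tables (0.126), and on TPM over protein-coding genes Egr3 lay above 1 TPM (0.0430). In the main tables the reads of Egr3 in libraries 1 and 2 were all placed on a transcript annotated as a retained intron (ENSMUST00000223747.1), although only 157 of its 3876 bases lie in an intron. Those of library 3 were placed on a coding transcript (ENSMUST00000225200.1). The kallisto-format tables put 97.3%, 51.4% and 16.1% of Egr3 on the former and 0%, 0% and 40.9% on the latter, and the rest on other transcripts. The M4 tables, which list neither, gave Egr3 7, 25 and 31 counts.

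Ier2 (ENSMUSG00000053560.4, chr8:84661331-84662852, minus strand) had 12.4, 8.63 and 20.4 TPM, with 1882, 1426 and 2069 expected counts. Library 3 was highest and library 2 lowest, as for Fos. The mean was 13.8 TPM ± 5.99 (SD, n = 3; edgeR adjusted p = 3.87e-09). Jun, Jund and Ier2 have a single transcript without introns, and so does the coding transcript of Junb, so intron reads as described for Fosb and Fosl2 cannot enter their values.

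All 10 genes were higher in library 3 than in both other libraries as whole genes in the main tables, though Fosl2 and Fosb were not on coding transcripts alone or in the M4 tables. The same held for 58.2% of the 8298 protein-coding genes with a mean of 1 TPM or more, a level that 9 of the 10 genes reach. Jun and Fos were at least 2-fold higher in library 3 than in both, as were 7.22% of those genes. The difference from libraries 1 and 2, on the log2(TPM + 0.1) scale, was 2.15 and 2.24 for Jun and 1.34 and 2.15 for Fos. Next came Ier2 (0.71 and 1.23), Atf3 (0.79 and 1.05), Junb (0.70 and 1.00) and Fosl2 (0.59 and 0.54). Egr1 (0.36 and 0.74), Fosb (0.22 and 0.62), Egr3 (0.04 and 0.53) and Jund (0.33 and 0.02) differed least. The median protein-coding gene was itself 0.21 and 0.37 higher in library 3, and 8 of the 10 genes, all but Jund and Egr3, exceeded that shift against both libraries, beside 38.4% of the 8298 genes. Relative to it Jund was 0.12 and -0.35 and Egr3 -0.17 and 0.16. With TMM or DESeq2 scaling 7 of the 10 genes were higher in library 3 than in both others, and 8 of the 10 in the M4 tables. The 3 libraries are replicates of 1 group, so these differences are a description with no test.

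**Figure D4:**
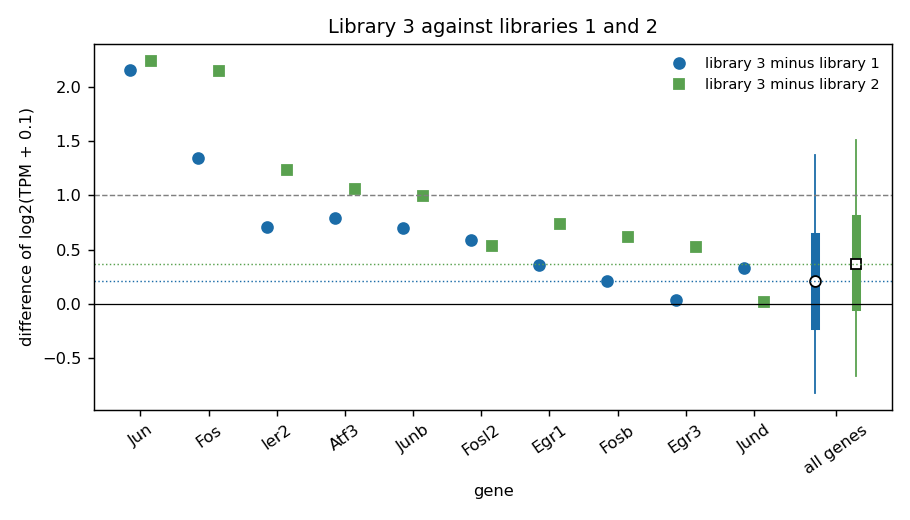
Difference of log2(TPM + 0.1) between library 3 and library 1 (circles) or library 2 (squares) for each gene, beside the median (open symbol), middle 50% (thick line) and middle 90% (thin line) of 8298 protein-coding genes with a mean of 1 TPM or more; dotted lines extend the medians and the dashed line is 2-fold. Jun lies at 2.15 and 2.24, above the thin line in both comparisons, and Jund and Egr3 each fall below the median of all genes in 1 comparison.

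The markers of other blood cells given above moved between the same libraries as Jun and Fos, with 6 of 6 natural killer cell and 6 of 6 platelet markers highest and 4 of 4 red cell and 4 of 6 neutrophil markers lowest in library 3. Their part in the values of the 10 genes was not tested. Library 3 also had the lowest depth and the widest range of fragment sizes, 200 to 1000 bp. Those of libraries 1 and 2 were 200 to 594 and 200 to 491 bp. With 1 such library the makeup of the sample, these features of the library and any change within monocytes cannot be told apart. Genes whose profile over the 3 libraries was nearest to that of Jun were Baiap3, Ptp4a1, Sytl2, Klrc2 and Tbx21, at distances of 0.0382 to 0.164 (Euclidean, centred log2 values), among 3860 protein-coding genes with a mean of 5 TPM or more. The nearest, Baiap3, had 3.32, 3.22 and 15.1 TPM, Ptp4a1 2.95, 2.59 and 13.5 TPM and Sytl2 3.83, 3.57 and 15.25 TPM. Klrc2, a receptor of natural killer cells, ranked 4 with 10.7, 8.65 and 44.8 TPM. Tbx21, the transcription factor T-bet, ranked 5 with 2.66, 2.90 and 12.3 TPM. Nearest to Fos were Ttc3, Ifi47, Lax1, Agap2 and Skap1, at 0.0176 to 0.170. For Jun 9 and for Fos 6 genes lay within 0.25, but 697 did for Egr1, so the nearest genes of Egr1 (Bcas2, Rbpms, Trpc4ap, Hist1h1a and Slc28a2) are not particular to it. These distances rest on 3 points that share their library and depth.

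Sequences upstream of the start were compared for the genes with an entry in the RefSeq promoter table (GRCm38.p6, the assembly also called mm10), which held 7 of the 10. The 100 bases from 110 to 11 bases before the RefSeq start are printed for Fos and Jun, the genes that differed most between libraries, and for their relatives Fosb and Junb. Capitals mark the matches named in the next paragraph.
Fos (chr12:85473780-85473879, plus strand): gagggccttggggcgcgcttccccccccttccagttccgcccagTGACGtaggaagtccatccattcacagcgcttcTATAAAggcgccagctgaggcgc
Fosb (chr7:19310056-19310155, minus strand): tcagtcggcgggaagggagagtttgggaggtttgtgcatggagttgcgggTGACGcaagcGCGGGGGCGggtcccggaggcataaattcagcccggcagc
Jun (chr4:95052233-95052332, minus strand): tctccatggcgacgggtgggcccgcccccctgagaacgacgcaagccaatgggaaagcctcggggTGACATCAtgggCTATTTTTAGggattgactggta
Junb (chr8:84978759-84978858, minus strand): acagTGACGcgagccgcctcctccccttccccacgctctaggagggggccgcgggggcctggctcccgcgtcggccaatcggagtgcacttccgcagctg

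Motifs were searched on both strands of windows of 300 bases, 250 before and 50 after the start, in 32851 promoters. TGACG, the core of the site bound by CREB and ATF factors, was found in Fos (at 2 places), Fosb, Junb and Atf3, that is in 4 of 7 windows beside 20.8% of all promoters. GCGNGGGCG, the site of EGR factors, was found in Fosb and Fosl2, beside 5.55% of all promoters. TATAAA was found in Fos, 33 bases before its start, and in Junb at its RefSeq start, beside 13.6%. That start of Junb (chr8:84978748, minus strand) lies upstream of the start of its M21 coding transcript (chr8:84978718). The match is therefore upstream of the M21 start. Neither the AP-1 site TGACTCA (5.20% of all promoters) nor the full CREB site TGACGTCA, which contains TGACG (1.79%), nor the CArG box of serum response factor (1.63%) was found in the 7 windows. The windows reach only 250 bases before the start, and Egr1, Egr3 and Ier2 had none. Sites further upstream, or at those genes, were thus not searched. Jun holds TGACATCA, 1 letter from the full CREB site, 45 bases before its start (3.62% of promoters), and a match to the MEF2 site 33 bases before it (3.19%), which Atf3 holds as well. The last 2 motifs were added after the Jun window had been seen, and a match is a description of letters, not of binding.

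Genes that act on or beside these factors were nearly all detected. Counts above 1 TPM here and in the next 2 paragraphs stand beside 54.1% of the protein-coding genes tested. The MAP kinase cascade, which carries signals to the promoters of immediate early genes, had 13 of 13 genes above 1 TPM. These included the kinase kinase Map2k1 at 18.8 TPM ± 1.99, the p38 kinase Mapk14 at 18.0 TPM ± 1.64 and the ribosomal S6 kinase Rps6ka1 at 13.7 TPM ± 0.773 (SD, n = 3 each). Of 9 transcription factors known to drive immediate early promoters 7 lay above 1 TPM and 0 below, and all 9 were highest in library 3. These included Mef2a (26.1 TPM ± 5.49), Elk4 (13.5 TPM ± 6.04), a partner of serum response factor, Creb1 (10.3 TPM ± 3.13) and Mef2d (10.2 TPM ± 1.09; SD, n = 3 each). None of the 9 was 2-fold higher in library 3 than in both others at a mean of 1 TPM or more. Among protein-coding genes with such a mean, a level that 7 of the 9 reach, 58.2% were highest in library 3. Against both other libraries 7 of the 9 exceeded the shift of the median gene, beside 38.4% of those protein-coding genes. Without library 3 the edgeR counts of this list were 7 above and 2 below.

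Of 8 other AP-1 family genes 5 lay above 1 TPM and 0 below. Atf4, the effector of the integrated stress response, was at 48.0 TPM ± 5.06, beside 53.4 TPM for Junb, and Atf2 (4.58 TPM ± 0.741), Atf7 (4.27 TPM ± 2.59) and Batf (3.78 TPM ± 1.16) were lower (SD, n = 3 each). Among 4 EGR relatives and corepressors 2 lay above 1 TPM, both of them NAB genes, whose products bind EGR factors and repress them: Nab1 at 21.7, 17.2 and 20.6 TPM and Nab2 at 1.87, 1.18 and 3.70 TPM. Nab1 was thus above Egr1 in every library. Without library 3 Nab1 alone lay above. Egr4 had no counts, which allows up to 0.0201 TPM in library 3 at 3 counts, a limit of counting error only. Of 3 other IER genes Ier5 lay above 1 TPM at 14.6, 11.1 and 24.8 TPM, with library 3 highest as for Ier2, and Ier3 at 5.54, 7.28 and 1.77 TPM, with library 3 lowest. Ier5l lay below 1 TPM (0.19, 0.16 and 0.03 TPM; edgeR adjusted p = 0.0403), but not when library 1 or library 2 was left out.

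The other immediate early genes gave 16 of 22 above 1 TPM and 0 below, and 13 of 22 were highest in library 3, a share near the 58.2% of protein-coding genes given above. Lowest in library 3 were 5 of 22, named here after their values were seen: Mcl1, Nfkbia, Tnfaip3, Klf4 and Gadd45b. The highest were the nuclear receptor Nr4a1 at 75.3, 67.2 and 148 TPM, the survival gene Mcl1 at 102, 82.9 and 69.9 TPM, the zinc finger gene Klf6 at 55.1, 42.8 and 68.3 TPM and the antiproliferative Btg2 at 45.1, 36.6 and 80.7 TPM. Mcl1 was lowest in library 3 and the other 3 were highest there. At least 2-fold higher in library 3 than in both others were 4 genes, named here after their values were seen: the phosphatases Dusp1 and Dusp2, the RNA decay factor Zfp36 and Nr4a3. Of these Nr4a3 had 0.47, 0.48 and 2.10 TPM from 279, 286 and 373 counts, with effective lengths of 5295, 4906 and 2331 bases. Its TPM thus rose more than its counts, and it was called neither above nor below 1 TPM. Dusp1, which switches MAP kinases off, had 20.7, 13.7 and 42.6 TPM, and Zfp36 16.2, 13.1 and 41.5 TPM, the same order of libraries as Fos. Ccn1, Ccn2 and Npas4 had no counts in any library. Over the 18 genes of this list with a mean of 1 TPM or more the median difference of library 3 from libraries 1 and 2 was 0.41 and 0.65 (log2). Over the 9 of the 10 genes at that level it was 0.70 and 1.00, and over all such protein-coding genes 0.21 and 0.37.

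**Figure D5:**
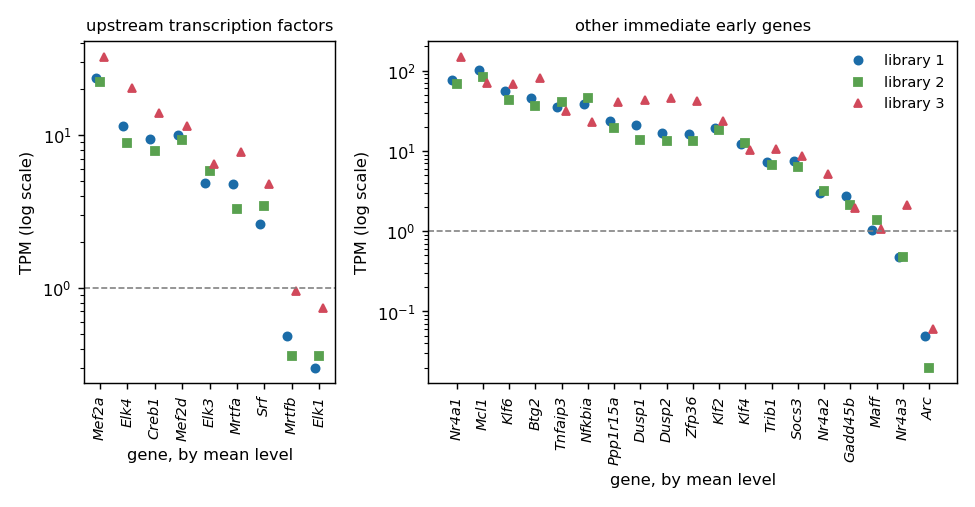
TPM (vertical axis, log scale) of the transcription factors known to drive immediate early promoters (left) and of the other immediate early genes with counts (right) in libraries 1, 2 and 3 (circles, squares and triangles), ordered by mean, with 1 TPM as a dashed line. All 9 factors are highest in library 3, whereas Mcl1 on the right is lowest there. Among protein-coding genes with a mean of 1 TPM or more 58.2% are highest in library 3.

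Some reads of the 10 genes could belong to overlapping genes, since no source used here gives the strand setting of the counting. Junos, antisense to the 5′ part of Jun, had 0, 0 and 1.97 TPM from 56 counts in library 3, against 15105 counts for Jun. Gm11175, antisense within Jund, had 2.96, 2.39 and 2.35 TPM from 86, 86 and 48 counts, against 2300, 3124 and 1949 counts for Jund. Part of the level of Jund is thus uncertain if strand was not used. Junb meets Prdx2 only in a short noncoding transcript, which held at most 1.87% of Junb in the main tables and at most 3.81% in the kallisto-format tables, and Gm24748 in Atf3 had no counts.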

How the data were processed

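Total RNA (100 ng, depleted of ribosomal RNA, ScriptSeq kit) was sequenced in 3 libraries, per the labels. The authors deposited expected counts (estimated reads) and TPM per gene and transcript on mm10 with GENCODE M21 and M4, per the accompanying notes; no source used here gives programs or strand setting. Fragment sizes were 200 to 594, 200 to 491 and 200 to 1000 bp.

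Rounded counts were fitted with edgeR 4.0.16 (quasi-likelihood, intercept only, offset of the counts that 1 TPM stood for: 112, 121 and 76.0 per 1000 bases). Genes with 10 or more counts in sum were tested (17678), with two-sided F tests and Benjamini-Hochberg adjustment at 0.05. DESeq2 1.42.0, limma 3.58.1, other scalings, filters, levels, annotations and left-out libraries were alternatives; the fit was tested on simulated data. Rows naming no gene (26345; at most 0.000571% of counts) were left out. Differences between libraries used log2(TPM + 0.1).

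The 10 genes and all lists were chosen with earlier results of these data known. Named besides are up to 4 called genes of highest mean per list, genes at 0 counts, and transcripts holding 10% or more of their gene. A gene that this rule names is not reported here. Mrtfa, Mrtfb, Ccn1 and Ccn2 were matched from older symbols.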

Additional observations from a re-analysis of the deposited data

How the results depend on the processing

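The 9 genes above 1 TPM kept that call in all 14 alternative fits; on TPM over protein-coding genes alone Egr3 joined them, with a level of 1.05 (log2) above 1 TPM. The count of 1 of the 10 genes below 1 TPM (Egr3) became 0 with DESeq2, on protein-coding TPM, against 0.5 TPM and in the M4 and kallisto-format tables, and was 0 to 1 with 1 library left out (0 without library 1). Over all genes, 1123 lay below 1 TPM. That count was 227 with DESeq2, 6304 and 6751 with limma (pseudocounts 0.1 and 1), 1695 with 10 counts in every library, 1 on protein-coding TPM, 176 against 0.5 TPM, 3396 against 2 TPM, 1805 in the kallisto-format tables and 251 to 1085 with 1 library left out. The count above, 7638, was 12092 on protein-coding TPM. The cause was not tested, except that the scale of protein-coding genes raises every level by construction.

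For library 3 minus the mean of libraries 1 and 2 (log2), Fosb turned to -0.018 and Fosl2 to -0.46 in the M4 tables, and to -0.53 and -0.49 on coding transcripts alone. Jund turned to -0.11 relative to the median gene, -0.16 with TMM and -0.17 with DESeq2 size factors, and Egr3 to -0.0059 relative to the median gene. Jun and Fos stayed at least 2-fold higher in library 3 in these alternatives. With counts in place of TPM the mean share of Jun was 40.5% (27.1% by TPM) and that of Fos 43.8% (65.5%), as counts are not per length. No paired analysis was possible because the series holds 1 group. Library 3 has the fewest counts per TPM, and values near those of Egr3 or Fosl1 rest on few reads.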
